A study of Mus musculus with 2 samples.

Results

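The genes described here encode the nuclear pore and the receptors that carry proteins and RNA through it. They were taken from a comparison of CD103+ Th1 and Th1 cells, both grown from splenic CD4 T cells of wild-type C57BL/6 mice that a magnetic sorter had enriched to a purity above 98%. To the CD103+ Th1 culture were added 3 ng/ml of IL-4, 10 ng/ml of IFN-γ and 3 ng/ml of TGF-β, whereas Th1 cells received 1 ng/ml of IL-12 with 1 µg/ml of the IL-4-blocking antibody 11B11. Both cultures received immobilised antibody against the T cell receptor and antibody against CD28 for 2 days, were cultured for 3 more days and were harvested after 5 days in all. CD103 is the integrin αE chain, and Th1 cells are helper T cells that make interferon-γ. Each condition had 1 Affymetrix array, and the number of mice is not given in the labels.

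Members were chosen by symbol. They are the genes named Nup, Ipo or Xpo with a following digit or letter, the genes Kpna and Kpnb with a number, and Tnpo1, Tnpo2, Tnpo3, Cse1l, Ran, Rangap1, Ranbp1 and Rcc1. Of 18193 genes that the platform annotation names on a probe set of their own, 51 met this rule, with 133 probe sets. Each probe set combines several short probes for a transcript. The probe set with the brightest mean log2 signal over both arrays stood for a gene, so brightness chose the values shown and the difference between arrays did not. A floor was set at the median signal of both arrays, 78.5, because low signals are dominated by background. Of the 51 genes, 47 lay above it on both arrays and 1, Nupr1l, on the Th1 array alone, which makes 48 measured genes. Kpna7, an importin α of oocytes and early embryos, had signals of 34.5 in CD103+ Th1 against 20.1 in Th1. Nup210l, a relative of Nup210, had 5.70 in CD103+ Th1 against 8.99 in Th1, and Nupr1 had 32.9 in CD103+ Th1 against 60.4 in Th1. These 3 genes were under the floor on both arrays and got no ratio. The symbol rule takes 2 genes, Nupr1 and Nupr1l, whose names stand for nuclear protein and which encode no pore component. Nupr1l had 58.8 in CD103+ Th1 against 82.3 in Th1, at least 1.05-fold lower in CD103+ Th1.

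The nuclear pore is a ring-shaped assembly of nucleoporins set into the nuclear envelope. Scaffold nucleoporins form its outer and inner rings, and nucleoporins with phenylalanine-glycine repeats fill the channel and select what passes. Importins load cargo in the cytoplasm and release it in the nucleus when the GTPase Ran in its GTP form binds them, whereas exportins need that form of Ran to hold their cargo. Activated T cells enlarge their nuclei and make many ribosomes, whose proteins are imported and whose subunits are exported through these pores.

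Most of the measured pore and transport genes were slightly lower in CD103+ Th1 than in Th1. Of 48 genes, 39 had a log2 ratio of CD103+ Th1 over Th1 below 0 and 9 above 0. Among all 11194 measured genes the share below 0 was 52.6%, and among the 7709 genes whose mean signal was at least 4 times the floor it was 51.3%. The median log2 ratio of the 48 genes was -0.32, a signal 1.25-fold lower, against -0.03 for all measured genes. The ratios ran from -0.95 for Ipo11 to 0.46 for Nup153, with quartiles at -0.54 and -0.07. A 2-fold difference was reached by 0 of 48 members in either direction; over all measured genes, 4.87% were lower and 5.04% higher by that much. At 1.5-fold, 11 of 48 members were lower, 22.9%, and 0 were higher, where the shares of all measured genes were 13.4% and 12.4%. With 1 array per condition no test was possible, and the spread between cultures or between arrays could not be estimated.

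**Figure D1:**
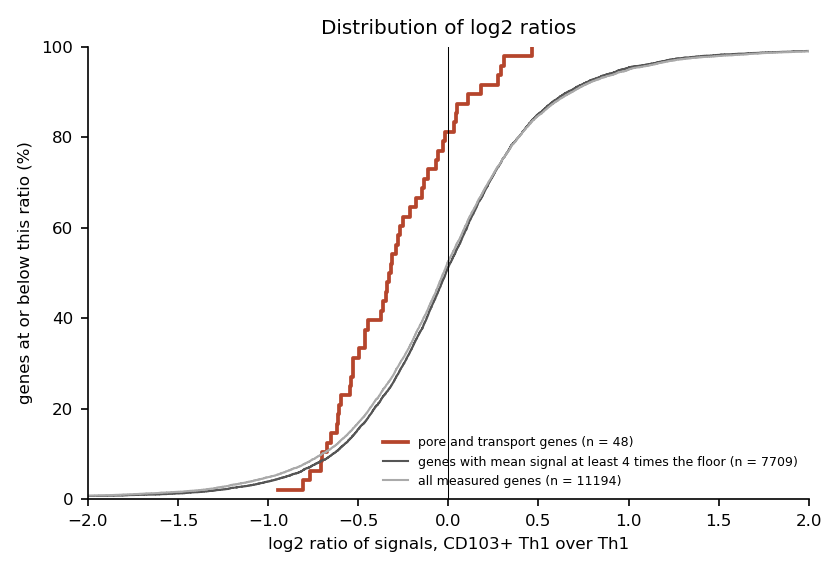
Cumulative share of genes (vertical axis, percent) at or below a given log2 ratio of CD103+ Th1 over Th1 (horizontal axis), for the 48 pore and transport genes, for the 7709 genes with a mean signal at least 4 times the floor and for all 11194 measured genes. The curve of the pore and transport genes reaches 81.3% at a ratio of 0, and the other curves 51.3% and 52.6%; genes beyond a log2 ratio of 2 in size lie outside the plot.

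**Figure D2:**
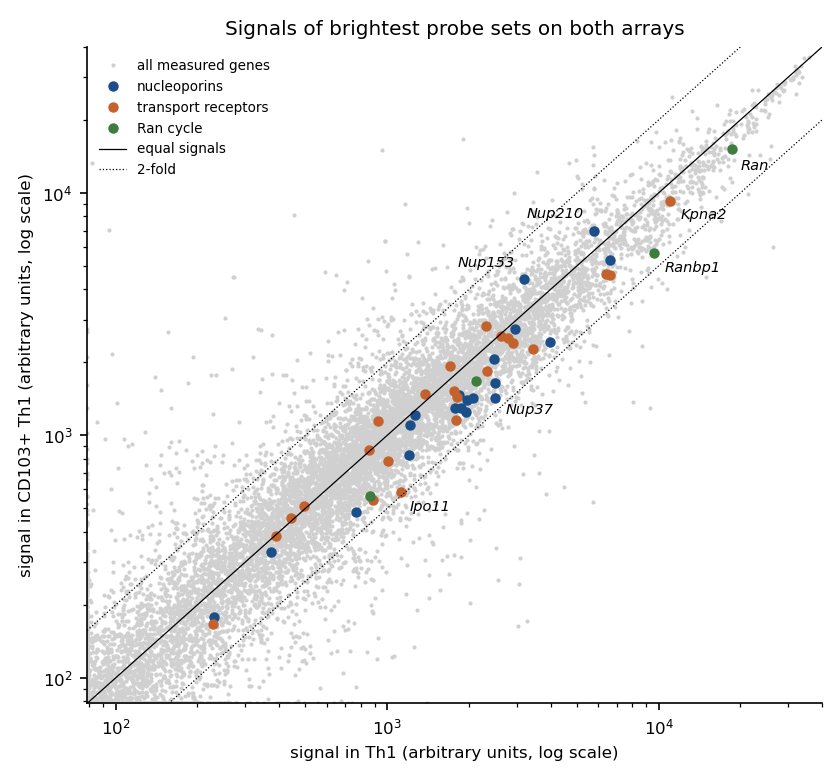
Signal of the brightest probe set of each gene on the CD103+ Th1 array (vertical axis) and the Th1 array (horizontal axis), both in arbitrary units on log scales, with values under the floor drawn at the floor. The solid line marks equal signals and the dotted lines 2-fold differences; all coloured points lie between the dotted lines and 38 of the 47 lie under the solid line, with Nupr1l not coloured.

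Start-site sequences were looked at because so many members were lower together. RefSeq windows of 300 bases around the start sites on mouse GRCm38.p6, supplied for 42 of the 51 genes, were searched on both strands for 3 motifs of transcription factors that often lie near the starts of growth-related genes. The E-box CACGTG, which MYC with MAX and other helix-loop-helix factors can bind, was in 9 of 49 windows of the members, 18.4%, against 7.15% of all 32851 windows. Among the 9 was the window of Nupr1, which encodes no pore component and got no ratio. The NRF1 motif GCATGCGC was in 8 windows, 16.3%, against 2.71%, and the ETS motif CCGGAAGT in 4 windows, 8.16%, against 3.89%. The windows were not matched on base composition. The motifs were chosen with earlier results of these data known. The NRF1 motif was shortened after values under other forms had been seen, so these shares are no independent result. By gene, the E-box was found in 8 of 33 members with a ratio below 0 and 0 of 7 with a ratio above 0, and the NRF1 motif in 7 of 33 and 1 of 7. These differences were not tested, and 7 genes are too few for a comparison. A match is a run of letters and no evidence of binding. The windows of Ran, Ipo4, Nup54 and Nup107 are examples picked for their motifs, from genes of 4 different roles that were all lower in CD103+ Th1. The window of Xpo5, a gene with a log2 ratio of 0.04, also holds the NRF1 motif and is not shown. The examples therefore do not bear on whether motif and direction go together. Capitals mark the motifs; in Ran and Nup107 the NRF1 motif overlaps its own copy on the other strand, and no motif overlaps another.
Ran chr5:129019906-129020205 (+ strand): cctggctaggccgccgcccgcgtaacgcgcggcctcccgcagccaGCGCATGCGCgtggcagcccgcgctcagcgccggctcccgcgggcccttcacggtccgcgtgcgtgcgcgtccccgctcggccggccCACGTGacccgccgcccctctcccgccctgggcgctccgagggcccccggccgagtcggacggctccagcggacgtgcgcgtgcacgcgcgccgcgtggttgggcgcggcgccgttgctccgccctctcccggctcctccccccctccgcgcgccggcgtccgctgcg
Ipo4 chr14:55635635-55635934 (- strand): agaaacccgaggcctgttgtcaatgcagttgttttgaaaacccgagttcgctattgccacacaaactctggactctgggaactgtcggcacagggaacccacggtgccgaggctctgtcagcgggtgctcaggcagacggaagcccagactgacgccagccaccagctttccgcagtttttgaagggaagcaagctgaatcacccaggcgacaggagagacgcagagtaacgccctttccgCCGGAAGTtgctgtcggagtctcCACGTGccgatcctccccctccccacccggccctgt
Nup54 chr5:92435150-92435449 (- strand): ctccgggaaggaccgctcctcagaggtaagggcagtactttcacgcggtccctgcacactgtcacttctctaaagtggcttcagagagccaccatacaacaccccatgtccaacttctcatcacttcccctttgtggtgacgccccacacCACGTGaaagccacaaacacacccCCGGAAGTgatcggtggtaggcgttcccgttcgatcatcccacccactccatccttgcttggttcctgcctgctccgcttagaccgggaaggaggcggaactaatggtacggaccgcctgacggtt
Nup107 chr10:117792656-117792955 (- strand): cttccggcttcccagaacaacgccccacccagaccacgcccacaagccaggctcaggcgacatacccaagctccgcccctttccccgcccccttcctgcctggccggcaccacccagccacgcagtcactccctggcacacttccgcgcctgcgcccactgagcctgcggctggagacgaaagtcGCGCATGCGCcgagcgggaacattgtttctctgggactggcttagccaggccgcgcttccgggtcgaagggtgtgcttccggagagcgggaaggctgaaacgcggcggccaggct

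All 6 outer ring genes taken by the symbol rule were lower in CD103+ Th1, where 52.6% of all measured genes were. At least 1.5-fold lower were 2 of the 6, 33.3%, against 13.4% of all measured genes. The median ratio of the 6 genes was the lowest of the positions of the pore at the floor used. With the floor at the 75th percentile of signals the inner ring median, -0.65, was lower than that of the outer ring, -0.54. Outer ring genes encode the Y-shaped coat complex, a scaffold that also binds kinetochores in mitosis. Subunits of this complex that the rule leaves out lay higher. On the log2 scale Seh1l was at 0.32, Sec13 at -0.20 and Ahctf1 at -0.27. Nup37 had signals of 1431 in CD103+ Th1 against 2502 in Th1, 1.75-fold lower. Nup43 had 481 in CD103+ Th1 against 766 in Th1, 1.59-fold lower, and its other probe set gave a log2 ratio of -0.72. Nup37 and Nup43 encode small propeller-shaped subunits of the complex. Nup107 had 1420.1 in CD103+ Th1 against 2073 in Th1, 1.46-fold lower. Nup133 had 830.4 in CD103+ Th1 against 1208 in Th1, 1.45-fold lower, although its 4 measured probe sets spread over log2 ratios of -0.73 to 0.14. The remaining members of the outer ring, Nup85 and Nup160, had log2 ratios of -0.50 and -0.45. The median log2 ratio of the 6 genes was -0.54, and their quartiles were -0.64 and -0.51, a narrower range than that of all 48 members.

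Inner ring genes were lower as well, by unequal amounts. Nup205, a large scaffold protein, had signals of 2439 in CD103+ Th1 against 3969.7 in Th1, 1.63-fold lower, and Nup93, which links it to the rest of the ring, had 1248 in CD103+ Th1 against 1958 in Th1, 1.57-fold lower. Nup188, a relative of Nup205 that can take the same position, had 330.2 in CD103+ Th1 against 373 in Th1, 1.13-fold lower. Nup155, which contacts the membrane, had 1107 in CD103+ Th1 against 1217 in Th1, 1.10-fold lower. Nup205 and Nup93 thus lay beyond 1.5-fold and the other inner ring genes closer to equal on their brightest probe sets, with second probe sets at -0.58 for Nup188 and -0.35 for Nup155. In the central channel all 4 genes had ratios below 0, against 52.6% of all measured genes. Nup54 had 1644 in CD103+ Th1 against 2487 in Th1, 1.51-fold lower, with 4 of 5 probe sets between -0.98 and -0.60 and a dim one at 0.41. Nup62, the core repeat protein of the channel, had 5268 in CD103+ Th1 against 6612 in Th1, 1.25-fold lower, and its 5 probe sets lay closely together, from -0.50 to -0.33. Nupl1, also known as Nup58, had 2736 in CD103+ Th1 against 2957 in Th1, 1.08-fold lower. Nup98, a repeat protein that also binds RNA export factors, had 1473 in CD103+ Th1 against 1832 in Th1, 1.24-fold lower, but its second probe set pointed the other way with a log2 ratio of 0.65, and the mean of both was 0.17.

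On the cytoplasmic face, the members Nup214, Nup88 and Nupl2 differed little on their brightest probe sets. Nupl2, a docking site for the RNA export factor Gle1, had signals of 178 in CD103+ Th1 against 230.4 in Th1, 1.30-fold lower, with a second probe set at 0.10 on the log2 scale. Nup88 had 2059.5 in CD103+ Th1 against 2479.6 in Th1, 1.20-fold lower. Nup214, its partner on the cytoplasmic filaments, had 1215 in CD103+ Th1 against 1263 in Th1, 1.04-fold lower. Its second, dim probe set was at -0.47. None of these reached 1.5-fold on its brightest probe set, whereas Ranbp2, a filament protein outside the symbol rule, was 1.91-fold lower.

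Among the members, Nup153 and Nup210 were the nucleoporins with higher signals in CD103+ Th1 on their brightest probe sets. Nup153, the repeat protein that anchors the nuclear basket, had 4409 in CD103+ Th1 against 3195 in Th1, 1.38-fold higher, and all 3 of its probe sets were above 0, from 0.40 to 0.60. Of all measured genes, 83.6% had a lower ratio than Nup153. Nup210, a membrane glycoprotein of the pore known in mice for its part in the survival of naive CD4 T cells, had 6976 in CD103+ Th1 against 5766 in Th1, 1.21-fold higher, with 1 measured probe set. Nup50, which works with Nup153 in the basket and helps importin α release its cargo, had 1296 in CD103+ Th1 against 1868 in Th1, 1.44-fold lower on its brightest probe set. Its second probe set, nearly as bright, read 1675 in CD103+ Th1 against 1398 in Th1, a log2 ratio of 0.26, so the direction of Nup50 is unsettled. Over the 20 measured nucleoporins of all positions, 18 had ratios below 0 and 5 were at least 1.5-fold lower. The shares of all measured genes were 52.6% and 13.4%. The median log2 ratio of the 20 nucleoporins was -0.41. The 18 include Nup50, and also Nup98, whose probe sets had a mean log2 ratio of 0.17.

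**Figure D3:**
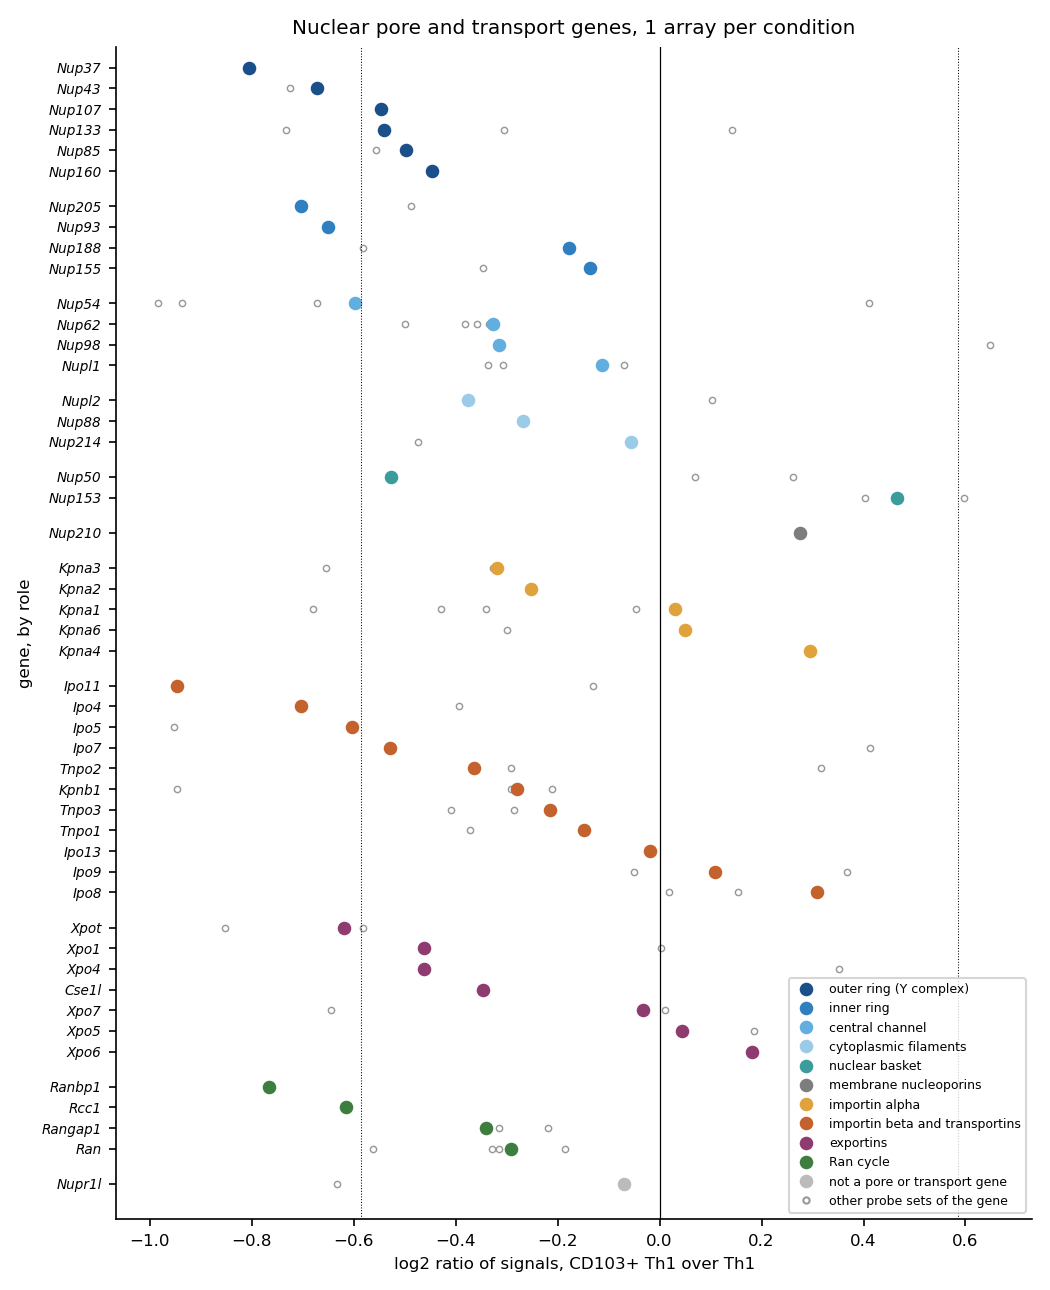
Log2 ratio of CD103+ Th1 over Th1 (horizontal axis) for each of the 48 measured genes (vertical axis), grouped and coloured by role; filled points are the brightest probe sets, open points the other measured probe sets, and dotted lines mark 1.5-fold. All outer ring, inner ring, central channel and Ran cycle genes lie left of 0 on their brightest probe sets, and Nup153 lies farthest right at 0.46.

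The importin α genes, whose products recognise the classical nuclear localisation signal, had no common direction. Kpna4 had signals of 2839.9 in CD103+ Th1 against 2315 in Th1, 1.23-fold higher. Kpna3, its close relative, had 1446 in CD103+ Th1 against 1803 in Th1, 1.25-fold lower, and its 3 probe sets were all below 0. Kpna2, the importin α of dividing cells, had 9289 in CD103+ Th1 against 11062 in Th1, 1.19-fold lower. Kpna6 had 512 in CD103+ Th1 against 495 in Th1, 1.03-fold higher, with its second probe set at -0.30. Kpna1, a further importin α gene, had 873 in CD103+ Th1 against 855 in Th1, 1.02-fold higher, while its 4 dimmer probe sets were below 0, down to -0.68. The median of the 5 genes was 0.03. It turned to -0.25 with all probe sets of each gene averaged or with probe sets free of suffix letters, and to -0.029 after quantile normalization, so no direction can be given for this group.

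Importin β and the related receptors that bind cargo directly were mostly lower, and unevenly so. Ipo11, which imports ubiquitin-conjugating enzymes, had the lowest ratio of all members, with signals of 585 in CD103+ Th1 against 1127 in Th1, 1.93-fold lower. Of all measured genes 5.43% had a lower ratio, but the second, dim probe set of Ipo11 was at -0.13. Ipo4, a carrier of histones and ribosomal proteins, had 543 in CD103+ Th1 against 885 in Th1, 1.63-fold lower, with its other probe set at -0.39. Ipo5, with similar cargo, had 2269 in CD103+ Th1 against 3449.6 in Th1, 1.52-fold lower, and its second probe set was lower still at -0.95. Ipo7, a carrier of ribosomal proteins and of histone H1, had 4601 in CD103+ Th1 against 6636 in Th1, 1.44-fold lower, with a dim second probe set at 0.41. Kpnb1, importin β itself, had 2398 in CD103+ Th1 against 2911 in Th1, 1.21-fold lower, and all 4 of its probe sets were below 0. In the other direction lay Ipo8, known to import SMAD proteins, which had 1148 in CD103+ Th1 against 926 in Th1, 1.24-fold higher. Its other probe sets, with signals close to the floor, were at 0.15 and 0.02. Ipo9, another histone carrier, had 1484 in CD103+ Th1 against 1376 in Th1, 1.08-fold higher, but its 3 probe sets ranged from -0.05 to 0.37, and it turned to -0.05 with probe sets free of suffix letters. Ipo13, which works in both directions, had 383 in CD103+ Th1 against 388 in Th1, 1.01-fold lower. The transportin genes Tnpo1, Tnpo2 and Tnpo3, for carriers of RNA-binding proteins, had log2 ratios of -0.15, -0.36 and -0.21. The second probe set of Tnpo2 pointed the other way, with 362 in CD103+ Th1 against 291 in Th1, a log2 ratio of 0.32, and the mean of its probe sets was -0.11. The 11 genes of this group had a median of -0.28, with 9 below 0, 81.8%, and 3 at least 1.5-fold lower, 27.3%. Over all measured genes these shares were 52.6% and 13.4%.

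Among the exportins, 5 of 7 had ratios below 0, 71.4%, and 1 was at least 1.5-fold lower, 14.3%. The shares of all measured genes were 52.6% and 13.4%, so the share at 1.5-fold was close to that of all genes. Xpot, the exportin of transfer RNA, had signals of 1162 in CD103+ Th1 against 1786 in Th1, 1.54-fold lower, and its 3 measured probe sets ranged from -0.85 to -0.58. Xpo1, also called CRM1, exports proteins with leucine-rich signals and ribosomal subunits, and had 4653 in CD103+ Th1 against 6414 in Th1, 1.38-fold lower. A second bright probe set of Xpo1 read 3729 in CD103+ Th1 against 3722 in Th1, with a log2 ratio of 0.00. Cse1l, which returns importin α to the cytoplasm, had 1839 in CD103+ Th1 against 2337 in Th1, 1.27-fold lower. Xpo4, a carrier of the translation factor eIF5A, had 166 in CD103+ Th1 against 229 in Th1, 1.38-fold lower, with its second probe set at 0.35. The other exportins were close to equal on both arrays. Xpo5, the exportin of microRNA precursors, had a log2 ratio of 0.04, Xpo6, which exports actin, 0.18, and Xpo7 -0.03, with its second probe set at 0.01. The median of the 7 exportins was -0.35, and -0.22 with all probe sets of each gene averaged. Importin α, importin β and exportin genes together had 16 of 23 ratios below 0, 69.6%, and a median of -0.25.

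All 4 genes of the Ran cycle were lower in CD103+ Th1, where 52.6% of all measured genes were. Ranbp1, which helps the GTPase-activating protein release Ran from transport receptors, had signals of 5643 in CD103+ Th1 against 9599 in Th1, 1.70-fold lower, on 1 probe set. Rcc1, the chromatin-bound exchange factor that loads Ran with GTP, had 564 in CD103+ Th1 against 864 in Th1, 1.53-fold lower, also on 1 probe set. Rangap1, the GTPase-activating protein, had 1680.2 in CD103+ Th1 against 2128 in Th1, 1.27-fold lower. Ran itself had 15212 in CD103+ Th1 against 18623 in Th1, 1.22-fold lower, and its 5 measured probe sets were all below 0, from -0.56 to -0.19. The brightest Ran probe sets carry the suffix that marks possible binding of related transcripts, and the one measured probe set of Ran without it was at -0.56. The median of the 4 genes was -0.48. The regulators Ranbp1 and Rcc1 lay beyond 1.5-fold, and Ran and Rangap1 did not. Of all measured genes, 13.4% were at least 1.5-fold lower.

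Probe sets of the same gene give the only gauge of measurement error within these arrays, and it covers neither cultures nor arrays. Of the 51 genes, 35 had more than 1 measured probe set. The log2 ratios of the brightest and the second brightest differed by a median of 0.22 in these genes, and by 0.24 over 5238 genes of the whole table. The ratios of 34 of 48 members, 70.8%, were larger in size than 0.24, and so were those of 61.3% of all measured genes. The 90th percentile of this difference over those 5238 genes was 0.75, and 3 members, Ipo11, Nup37 and Ranbp1, had a ratio larger in size, 6.25% of the 48, against 17.2% of all measured genes. All measured probe sets were below 0 in 19 of the 35 genes, all above 0 in 3, and in both directions in 13. As shares these were 54.3%, 8.57% and 37.1%, against 32.6%, 31.5% and 35.9% of the 5238 genes, so probe sets pointed both ways about as often in the members as in the whole table. The second brightest probe sets, which the rule did not choose, were below 0 in 24 of 35 genes, 68.6%, with a median of -0.30, against 49.2% and a median of 0.01 over the second brightest probe sets of the 5238 genes. They come from the same 2 RNA samples and are no replicate.

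**Figure D4:**
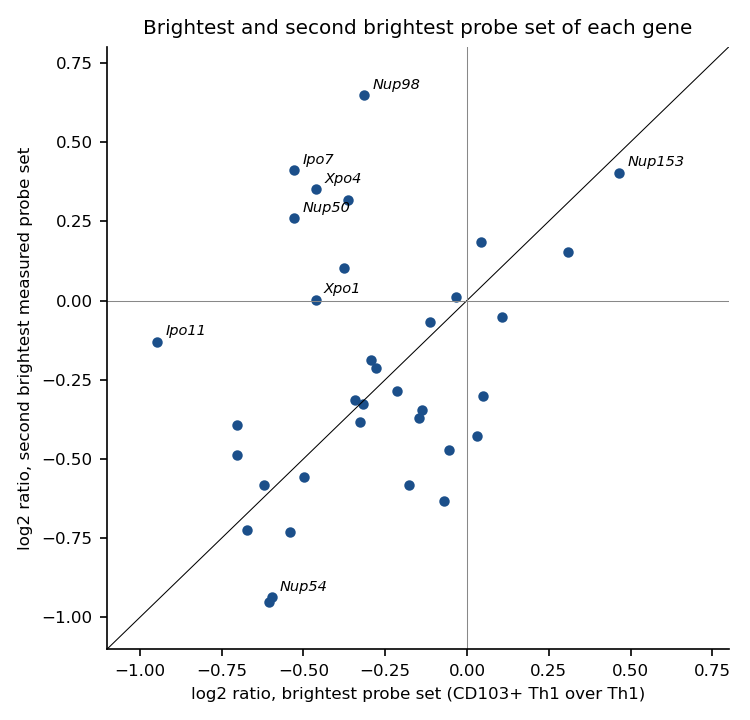
Log2 ratio of CD103+ Th1 over Th1 for the second brightest measured probe set (vertical axis) against the brightest (horizontal axis) of the 35 genes with more than 1, with a line at equal ratios. Both ratios have the same sign in 24 of the 35 genes; Nup98, Ipo7, Xpo4 and Nup50 are among those that lie where only the second is above 0.

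Related genes outside the symbol rule were read from lists of the pathway. Pore genes under other symbols followed the nucleoporins, with 9 of 10 below 0 and a median of -0.29. At least 1.5-fold lower were 2 of them, 20.0%, against 13.4% of all measured genes. Aaas, which encodes the pore protein aladin, had signals of 1629.6 in CD103+ Th1 against 3171 in Th1, 1.95-fold lower, on 1 probe set. Ranbp2, the large filament protein with Ran-binding domains, had 3359 in CD103+ Th1 against 6420.4 in Th1, 1.91-fold lower, and its 4 probe sets ranged from -1.36 to -0.43. On brightest probe sets Seh1l, a further outer ring subunit, was the exception with a log2 ratio of 0.32. Its 6 probe sets ranged from -0.01 to 0.76. Gle1 was at -0.05, but its 6 probe sets ranged from -0.18 to 0.78. Pom121 was at -0.37, with its other probe set at 0.01. The other nuclear transport genes had no common direction, with 5 of 10 below 0 and a median of -0.01. Among them Rangrf, whose product releases nucleotide from Ran, had 229 in CD103+ Th1 against 601 in Th1, 2.63-fold lower, the widest gap of the pathway lists, on 1 probe set. Heatr3, linked to the import of a ribosomal protein, had 307 in CD103+ Th1 against 498 in Th1, 1.62-fold lower.

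Genes of mRNA export and of the nuclear lamina showed less of a shift. Of 18 mRNA export genes 10 were below 0, 55.6% against 52.6% of all measured genes, with a median of -0.14. Beyond 1.5-fold lay 1 gene downwards and 1 upwards, where the shares of all measured genes were 13.4% and 12.4%. Eny2, of the TREX-2 export complex, had signals of 1279 in CD103+ Th1 against 1952 in Th1, 1.53-fold lower, and Thoc5, of the THO complex, had 923 in CD103+ Th1 against 613 in Th1, a log2 ratio of 0.59. Of 16 lamina and envelope genes 11 were below 0, 68.8% against 52.6% of all measured genes, with a median of -0.07. Sun2, which ties the envelope to the cytoskeleton, had 11551 in CD103+ Th1 against 5042 in Th1, 2.29-fold higher, with a second probe set at 0.87. Lmna, the gene of lamins A and C, had 90.8 in CD103+ Th1 against 174 in Th1, 1.91-fold lower, near the floor in CD103+ Th1. These lists thus held genes on both sides. For 2 other growth-related lists the shift was larger. All 8 genes of the chaperonin CCT were below 0, with a median of -0.59 and 4 at least 1.5-fold lower. Among 28 nucleolar ribosome assembly genes, 27 were below 0, with a median of -0.75, 18 of them beyond 1.5-fold and 5 beyond 2-fold. For all measured genes the share below 0 was 52.6%, the share beyond 1.5-fold downwards 13.4% and that beyond 2-fold downwards 4.87%. These lists were chosen with results of these arrays known, and the differences between lists were not tested.

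**Figure D5:**
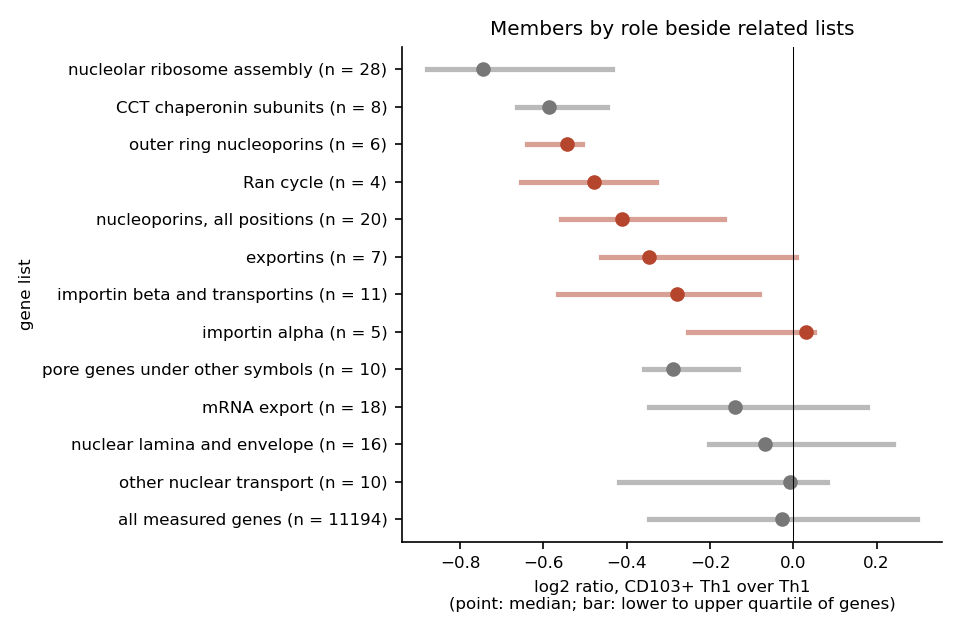
Median log2 ratio of CD103+ Th1 over Th1 (points, horizontal axis) and lower to upper quartile of genes (bars) for role groups of the pore and transport genes (red) and for related lists and all measured genes (grey), with the number of measured genes. Medians run from -0.75 for nucleolar ribosome assembly, through -0.54 for the outer ring, to 0.03 for importin α genes.

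The cultures were read against markers of other cells. Summed signals of 9 T cell markers were 66894 in CD103+ Th1 and 58617 in Th1, and Cd4 had 1081 in CD103+ Th1 against 973 in Th1. The 5 markers of CD8 T, γδ T and NK cells summed to 7016 in CD103+ Th1 and 3412 in Th1. Cd8a had 2054 in CD103+ Th1 against 466 in Th1, and its 5 measured probe sets ranged from log2 ratios of 0.24 to 2.16. Klrk1 had 3293 in CD103+ Th1 against 2163 in Th1, and Cd8b1 had 1593 in CD103+ Th1 against 697 in Th1. The NK marker Ncr1 and Tyrobp were under the floor on both arrays. Of 8 B cell markers 6 were under the floor on both arrays, including Ms4a1, Pax5 and Cd79a, and the sums were 512 in CD103+ Th1 and 388 in Th1. Cd79b, a signalling chain of the B cell receptor, had 244 in CD103+ Th1 against 75.8 in Th1, which is under the floor, at least 3.11-fold higher. The 11 myeloid and dendritic cell markers summed to 2417 in CD103+ Th1 and 1029 in Th1, with Itgam, Itgax, Lyz2 and Cd14 under the floor on both. Other genes of this list were far apart. H2-Aa, a chain of MHC class II, had 798 in CD103+ Th1 against 58.5 in Th1, at least 10.2-fold higher, and Mpeg1, a pore-forming protein of macrophages, had 660.2 in CD103+ Th1 against 5.75 in Th1, at least 8.41-fold higher. Cd74, the class II invariant chain, had 526 in CD103+ Th1 against 207 in Th1, 2.54-fold higher. In the other direction, Cd68 had 104 in CD103+ Th1 against 233 in Th1, 2.25-fold lower, and Csf1r 118 in CD103+ Th1 against 187 in Th1, 1.59-fold lower. The 4 red cell and platelet markers summed to 294 in CD103+ Th1 and 440.2 in Th1, with Hba-a1 and Ppbp under the floor on both. The part of other cells in the shift of the pore and transport genes was not tested. In such mixed RNA, fewer cells of a type and less RNA per cell cannot be told apart.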

How the data were processed

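The authors deposited linear signal intensities, 1 value for every probe set of an array, made with GCOS (Affymetrix) per the submitters' processing notes; for its version and scaling target, nothing is given in the sources used here. Medians were 78.0 for CD103+ Th1 and 78.8 for Th1, and 2% trimmed means were 498 for both arrays, so no further scaling was applied. The number of arrays limits the precision. Of 45037 probe sets, 34945 had 1 gene symbol in the platform annotation, 932 had several and 9160 had none listed; 34741 were updated by gene identifier to RefSeq GRCm38.p6 symbols, which changed 0 of the members' names. Only probe sets with 1 symbol were used, which set aside 3 that members share with another gene. Signals were floored at the median of both arrays and ratios taken as CD103+ Th1 over Th1. A gene under the floor on both arrays was not measured, and a fold was a bound where 1 of the signals lay under it. No test was made with 1 array per group. Members, lists, motifs and rules were chosen with earlier results of these data known; the NRF1 motif was shortened, and the pick of a gene's probe set (the brightest measured one) settled, after values under other forms had been seen. Signals are given for the 4 genes of each role with the largest ratios in size, those at least 1.5-fold apart, those under the floor and the 2 largest of each pathway list; a few other genes, such as Seh1l, were added after their values were seen. Scripts ran in Python 3.11.15 with pandas 2.3.3, and the steps were tested on simulated data.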

Additional observations from a re-analysis of the deposited data

How the results depend on the processing

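With 1 array per condition nothing could be left out, and depth cannot be given for array signals; members near the floor are the least certain. The counts below 0, the counts at 2-fold and at 1.5-fold lower and the median of the pore and transport genes stayed close to the values given under each of the 12 alternatives (floor at the 25th or 75th percentile, a pseudocount, 3 scalings, 4 choices of probe set, updated symbols, and leaving out Nupr1l). Of these, 3 were chosen after seeing the data: leaving out Nupr1l, and a gene's probe set picked by its mean signal either whether measured or not or after the floor; the last gave 12 at least 1.5-fold lower, with Nupr1l at -0.63 on the log2 scale. The median ranged from -0.35 to -0.29, and the number at least 1.5-fold lower from 8, with the mean of all probe sets, to 12. The number at least 1.5-fold higher was 1 with the floor at the 25th percentile, where more genes were measured, against 0. Quantile normalization gave 42 of 48 below 0, where the share of all measured genes was 54.1%. The importin α median of 0.03 became -0.029 after quantile normalization and -0.25 with the mean of all probe sets or with probe sets free of suffix letters. The inner ring median of -0.41 became -0.65 with the floor at the 75th percentile, below the outer ring's -0.54. The median of the 2 basket genes became 0.21 with the mean of all probe sets, against -0.03. The mean of all probe sets moved 23 of 48 single ratios by 0.1 or more on the log2 scale, and the cause was not tested. No paired analysis was possible because each condition had 1 array.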
